A study of Mus musculus with 9 samples.

Results

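The transcript levels of the tumour suppressor p53 (gene Trp53), of its inhibitors Mdm2 and Mdm4 and of 7 direct p53 target genes were compared between BCR/ABLp185+ cell lines with and without STAT5A or STAT5B. The 10 genes were chosen by name, as the p53 gene, both Mdm genes and the targets Ccng1, Zmat3, Trp53inp1, Phlda3, Eda2r, Gadd45a and Aen. They are 10 of the 50686 genes in the deposited count tables. Of them, 9 were among the 13852 genes with enough reads to be tested, and Eda2r was not. The samples were 3 lines of bone marrow cells from C57BL/6N mice, all transformed with the p185 form of the BCR/ABL fusion oncogene. The wt line carried no deletion of a Stat5 gene, the Stat5a-/- line lacked Stat5a and the Stat5b-/- line lacked Stat5b. There was 1 line of each genotype, sequenced as 3 technical replicates, so that each comparison is between 2 lines and its p-value measures only the spread between libraries of the same line. In a conflict with the titles and the genotype entries, 1 line of the deposited sample descriptions names the knockout samples as wt lines, and the titles were followed.

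p53 is a transcription factor that is held at a low level in unstressed cells and accumulates as a protein after DNA damage or oncogene signalling. MDM2, the product of one of its own targets, is the ubiquitin ligase that marks p53 for degradation, and MDM4 binds p53 and blocks its activity. This gives a feedback loop, in which active p53 raises the transcription of its own inhibitor together with genes for cell cycle arrest, DNA repair and cell death. The ARF protein, encoded in the Cdkn2a gene, binds MDM2 and releases p53 from it. In B-lineage cells transformed by Abelson oncogenes, this ARF and p53 axis is a known barrier to transformation. Since p53 is controlled mainly as a protein, the level of its transcript and that of its targets are separate readouts.

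p53 binds a pair of decamers with a palindromic consensus. The consensus was searched by its degenerate letters in RefSeq promoters of build GRCm38.p6, from 250 bases before to 50 bases after each annotated start, where the palindrome covers both strands. Entries were found for 8 of the 10 genes, and 5 of these held at least 1 decamer in at least 1 of their windows (62.5%), against 2582 of 27025 genes (9.55%). Of the 34 other p53 targets described below, 26 had an entry and 9 of these held a decamer (34.6%). The decamer stood 75 bases upstream of the start in Trp53, 186 in Mdm2, 185 in Ccng1, 40 in Gadd45a and 121 for 1 of the annotated starts of Aen. The windows of Phlda3, Mdm4 and Eda2r held none. A pair of decamers at most 13 bases apart was found in 20 of the 27025 genes (0.0740%), and in none of the 8. Cdkn1a, the p21 gene and the best known p53 target, held such a pair in the window of 1 of its annotated starts. The window of its other annotated start held no decamer. The 250 bases before the start are shown for the inhibitor Mdm2, for Trp53 itself and for 2 targets that rose in the knockout lines, beside those of Cdkn1a, each on the strand of the gene with the decamers in capitals. The windows are chr11:69580109-69580358 for Trp53, chr10:117710759-117711008 for Mdm2, chr11:40755287-40755536 for Ccng1, chr6:67037408-67037657 for Gadd45a and chr17:29090729-29090978 for Cdkn1a. A match is a description of the sequence and not evidence of binding.
Trp53: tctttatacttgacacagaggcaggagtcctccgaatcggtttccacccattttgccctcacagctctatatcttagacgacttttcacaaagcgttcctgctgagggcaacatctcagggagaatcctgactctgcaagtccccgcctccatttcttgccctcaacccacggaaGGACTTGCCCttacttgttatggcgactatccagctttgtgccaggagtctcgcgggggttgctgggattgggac
Mdm2: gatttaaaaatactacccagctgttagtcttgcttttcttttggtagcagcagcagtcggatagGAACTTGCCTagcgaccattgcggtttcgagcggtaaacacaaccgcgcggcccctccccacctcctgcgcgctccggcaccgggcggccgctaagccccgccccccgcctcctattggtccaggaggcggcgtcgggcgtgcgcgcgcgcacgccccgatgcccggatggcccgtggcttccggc
Ccng1: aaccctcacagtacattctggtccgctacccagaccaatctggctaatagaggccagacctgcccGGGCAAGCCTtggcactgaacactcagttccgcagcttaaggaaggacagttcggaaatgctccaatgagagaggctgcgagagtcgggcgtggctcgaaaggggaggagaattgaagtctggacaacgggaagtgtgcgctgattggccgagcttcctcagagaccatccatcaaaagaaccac
Gadd45a: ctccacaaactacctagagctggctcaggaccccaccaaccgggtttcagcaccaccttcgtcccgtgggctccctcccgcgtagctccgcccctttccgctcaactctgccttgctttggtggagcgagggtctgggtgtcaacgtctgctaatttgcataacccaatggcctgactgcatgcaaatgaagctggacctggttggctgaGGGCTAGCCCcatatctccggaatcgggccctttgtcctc
Cdkn1a: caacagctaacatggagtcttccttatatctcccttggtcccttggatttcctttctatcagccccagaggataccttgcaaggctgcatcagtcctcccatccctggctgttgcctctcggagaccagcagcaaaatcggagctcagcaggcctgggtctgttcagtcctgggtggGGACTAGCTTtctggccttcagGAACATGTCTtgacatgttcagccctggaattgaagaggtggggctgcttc

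The libraries held between 11948136 and 19016396 counted reads. Stat5a had 43.1 ± 6.35 normalized CPM (read counts scaled to library size, SD, n = 3) in wt and 12.4 ± 1.02 in Stat5a-/- libraries, and Stat5b had 106 ± 1.96 in wt and 63.4 ± 7.72 in Stat5b-/- libraries, so reads of either deleted gene remained. The B-lineage markers summed to between 4722 and 5026 CPM in wt, 6558 and 7278 in Stat5a-/- and 5789 and 6635 in Stat5b-/- libraries, and Rag1 was near 0 in both knockout lines. The 16 T-cell markers summed to between 729 and 984 CPM in wt, 1330 and 1526 in Stat5a-/- and 1672 and 2365 in Stat5b-/- libraries. All 16 were detected and the ranges of the 3 lines did not overlap, so that genotype and T-cell marker level cannot be told apart here. Singly, 7 of the 16 rose in Stat5a-/- against wt at an adjusted p under 0.05 with edgeR (19.8% of all tested genes). In Stat5b-/- against wt 14 did (24.2%), and none fell in either line. Between the knockout lines 13 were higher in Stat5b-/- (16.4% of all tested genes) and 1 was lower (17.5%). The 10 myeloid markers summed to between 4.62 and 7.02 CPM in wt, 7.57 and 9.37 in Stat5a-/- and 12.2 and 15.5 in Stat5b-/- libraries, again without overlap, with Elane and S100a9 at 0 in Stat5a-/- and Mpo, Elane and Cd14 at 0 in Stat5b-/- libraries. The 3 myeloid markers with enough reads to be tested, Csf1r, Lyz2 and Fcgr3, rose more than 2-fold in Stat5b-/- against wt. In Stat5a-/- Fcgr3 did so too (log2 fold change 2.09). Both tested erythroid markers, Hbb-bt and Klf1, fell in Stat5b-/- against wt, with log2 fold changes of -2.32 and -1.81. Neither erythroid marker passed the test in Stat5a-/- against wt. The part of these shifts in the results was not tested. Fewer cells of a type and less RNA per cell cannot be told apart in such bulk samples. Libraries of the same line also differed along the GC content of the genes, with correlations across genes between -0.57 and 0.61.

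The p53 transcript itself was abundant in every library and did not pass the test in any comparison, while its targets moved in both directions. In Stat5a-/- libraries, Ccng1, Trp53inp1 and Gadd45a rose and Mdm2, Zmat3 and Phlda3 fell against wt. In Stat5b-/- libraries, the same 3 targets rose, Zmat3 and Phlda3 fell, and Mdm2 was near its wt level. Between the knockout lines, Mdm2, Mdm4, Trp53inp1 and Gadd45a were higher in Stat5b-/- libraries. A gene was called where edgeR's quasi-likelihood test, adjusted after Benjamini-Hochberg over all tested genes, gave a p under 0.05. In Stat5a-/- against wt, 3 of the 9 tested genes rose, against 19.8% of all tested genes, and 3 fell, against 16.3%. In Stat5b-/- against wt, 3 rose, against 24.2% of all genes, and 2 fell, against 22.0%. In Stat5b-/- against Stat5a-/-, 4 were higher, against 16.4% of all genes. None was lower, against 17.5% of all genes, by edgeR or DESeq2, where the count at an unadjusted p under 0.05 was 0 with both. The wt libraries enter both comparisons against wt, so these are not independent of each other.

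**Figure D1:**
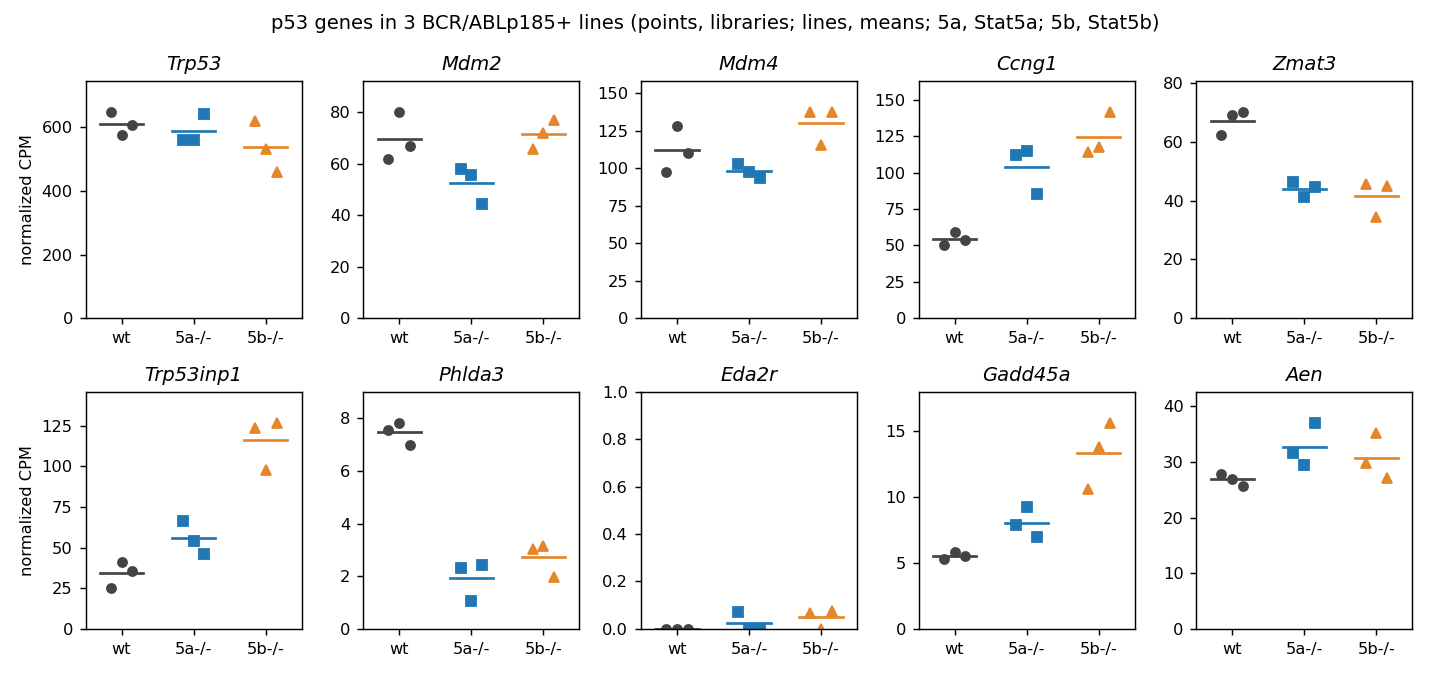
Normalized CPM (vertical axes, each from 0) of the 10 genes in the 9 libraries, with 1 panel per gene, 1 point per library and a line at the mean of each cell line. The Trp53 points of the 3 lines overlap, those of Ccng1 lie higher and those of Zmat3 and Phlda3 lower in both knockout lines than in wt, and Trp53inp1 and Gadd45a step up from wt to Stat5a-/- to Stat5b-/-.

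The direction of change was mixed within the group. The median log2 fold change of the 9 genes was -0.05 in Stat5a-/- and 0.19 in Stat5b-/- against wt, beside 0.01 and 0.02 over all tested genes, and 0.41 between the knockout lines, beside 0.02. The libraries of Stat5a-/- and wt did not overlap for 7 of the 9 genes, against 49.2% of all tested genes, those of Stat5b-/- and wt for 5 of 9, against 54.2%, and those of the knockout lines for 4 of 9, against 44.8%. A fold change above 2 as well as the adjusted p was reached by Phlda3 in Stat5a-/-, where 6.49% of all genes fell that far, and by no gene of the group that rose there, where 7.75% of all genes rose that far. In Stat5b-/- it was reached by Ccng1, Trp53inp1 and Gadd45a, where 10.6% of all genes rose that far, and by Phlda3, where 8.44% fell that far. Between the knockout lines it was reached by Trp53inp1, where 4.81% of all genes were that much higher in Stat5b-/-, and no gene of the group was that much lower, beside 6.60% of all genes.

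Trp53 (ENSMUSG00000059552.13, chr11:69580359-69591873) had the highest level per length of the 10 genes in each line, at 151 CPM per kilobase of exon for wt, 145 for Stat5a-/- and 133 for Stat5b-/- libraries. It was counted at 648, 575 and 607 CPM in wt, at 560.2, 561 and 641 in Stat5a-/- and at 621, 532 and 459 in Stat5b-/- libraries. The 3 lines overlapped, and the lowest value was that of Stat5b-/- replicate 3. Against wt, Trp53 changed by -0.05 on the log2 scale in Stat5a-/- (standard error 0.12, 95% interval -0.31 to 0.20) and -0.18 in Stat5b-/- (standard error 0.12, 95% interval -0.44 to 0.07). The adjusted p was 0.759 and 0.228 with edgeR's quasi-likelihood test. Between the knockout lines the log2 fold change was -0.13 (95% interval -0.39 to 0.13). Without Stat5b-/- replicate 1, the Stat5b-/- value was -0.33 and passed the test (adjusted p = 0.0417 with edgeR). Within each of the 3 lines, the order of the Trp53 values was the same as that of the GC trends of the libraries, and Mdm2 had the reverse order in all 3. With an offset for GC content, the log2 fold change of Trp53 was -0.21 in Stat5a-/- (adjusted p = 0.0552 with edgeR) and -0.22 in Stat5b-/- (adjusted p = 0.0364 with edgeR).

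**Figure D2:**
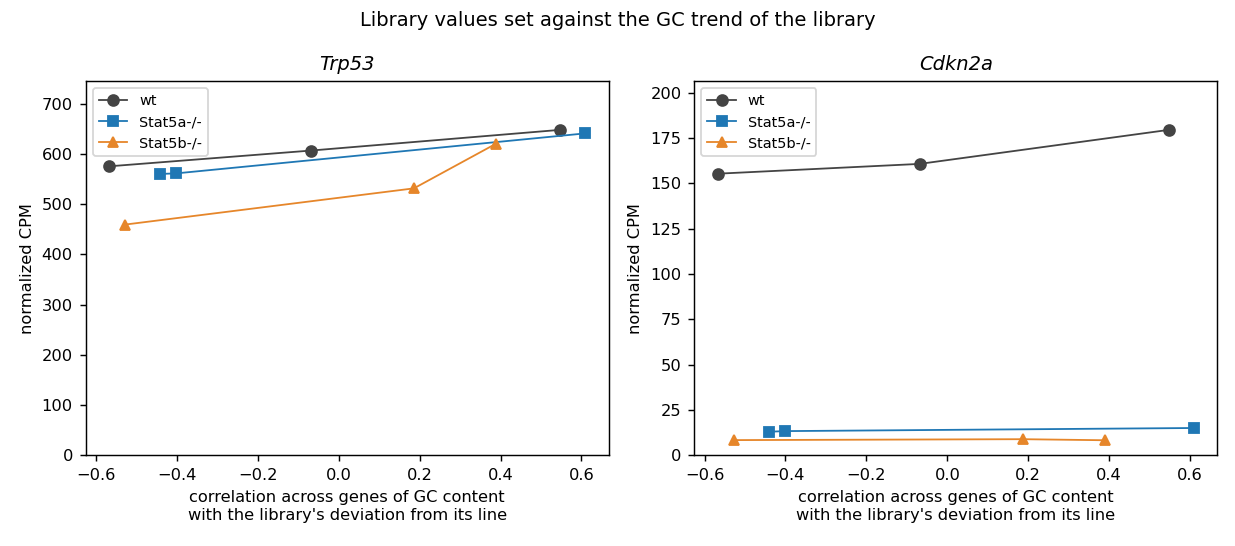
Normalized CPM (vertical axes, from 0) of Trp53 and of Cdkn2a in the 9 libraries, set against the correlation across genes between GC content and the deviation of the library from the mean of its line (horizontal axes). Lines join the libraries of a cell line. In each line Trp53 was highest in the library with the highest correlation, such as the 648 CPM of wt replicate 1, while the Cdkn2a values of the knockout lines lie far below those of wt at every correlation.

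Mdm2 (ENSMUSG00000020184.15, chr10:117688875-117710758), the main ubiquitin ligase of p53 and itself a p53 target, was lower in the Stat5a-/- line alone. Levels were 61.8, 80.2 and 67.1 CPM in wt, 58.0, 55.6 and 44.3 in Stat5a-/- and 65.7, 71.8 and 77.0 in Stat5b-/- libraries. Every Stat5a-/- library lay below every library of the other 2 lines, whose ranges overlapped. The log2 fold change was -0.41 in Stat5a-/- against wt (standard error 0.13, adjusted p = 0.0273 with edgeR's quasi-likelihood test) and 0.04 in Stat5b-/- against wt (95% interval -0.24 to 0.32). Stat5b-/- libraries were 1.36-fold above Stat5a-/- libraries, or 0.44 on the log2 scale (standard error 0.13, adjusted p = 0.0201 with edgeR). The call against wt was lost without wt replicate 2 (log2 fold change -0.29, adjusted p = 0.130 with edgeR), wt replicate 3 (-0.44, adjusted p = 0.0556) or Stat5a-/- replicate 3 (-0.33, adjusted p = 0.0667). The call between the knockout lines was lost without Stat5a-/- replicate 3 (0.34, adjusted p = 0.0611 with edgeR), Stat5b-/- replicate 2 (0.44, adjusted p = 0.0522) or Stat5b-/- replicate 3 (0.39, adjusted p = 0.0558).

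Mdm4 (ENSMUSG00000054387.13, chr1:132959484-133030561), which inhibits p53 without degrading it, differed between the knockout lines. It stood at 97.5, 128 and 110.0 CPM in wt, at 103, 97.4 and 93.6 in Stat5a-/- and at 137, 115 and 137 in Stat5b-/- libraries. The wt libraries spanned most of the range of both knockout lines, which did not overlap with each other. Its log2 values against wt were -0.19 in Stat5a-/- (95% interval -0.45 to 0.06) and 0.21 in Stat5b-/- (95% interval -0.04 to 0.46), and neither passed the test. Its 83 neighbours within 5 Mb had a median of 0.26 in Stat5b-/- against wt and 0.15 between the knockout lines. Stat5b-/- libraries were 1.33-fold above Stat5a-/- libraries (log2 fold change 0.41, standard error 0.12, adjusted p = 0.0170 with edgeR's quasi-likelihood test). This call was lost without Stat5a-/- replicate 2 (0.40, adjusted p = 0.0566 with edgeR) or Stat5b-/- replicate 1 (0.36, adjusted p = 0.0529). Per length, Mdm4 had 7.57 CPM per kilobase in wt, below the 13.7 of Mdm2.

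Ccng1 (ENSMUSG00000020326.7, chr11:40748552-40755311) encodes cyclin G1, which recruits a phosphatase to MDM2 and is among the most regular p53 targets. It stood at 50.6, 59.3 and 53.6 CPM in wt, 112, 115 and 85.5 in Stat5a-/- and 114, 118 and 142 in Stat5b-/- libraries. All 6 knockout libraries lay above all wt libraries, and the knockout lines overlapped. Ccng1 rose 1.91-fold in Stat5a-/- (log2 fold change 0.93, standard error 0.13, adjusted p = 8.86e-05 with edgeR's quasi-likelihood test) and 2.28-fold in Stat5b-/- (1.19, standard error 0.13, adjusted p = 8.42e-06). The difference between the knockout lines was 0.26 (95% interval -0.02 to 0.54). Its neighbours within 5 Mb on chromosome 11 had a median log2 fold change of -0.02 in Stat5a-/- and 0.05 in Stat5b-/-.

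Trp53inp1 (ENSMUSG00000028211.11, chr4:11156431-11174379) encodes a nuclear stress protein that takes part in p53-dependent cell death and in autophagy. It rose most of the 9 genes in Stat5b-/- and rose in steps over the 3 lines. Its values were 25.1, 41.5 and 35.9 CPM in wt, 66.6, 54.3 and 46.1 in Stat5a-/- and 124, 97.9 and 127 in Stat5b-/- libraries. No library of a line overlapped with those of another line. The increase was 1.63-fold in Stat5a-/- (log2 fold change 0.70, standard error 0.18, adjusted p = 0.00860 with edgeR's quasi-likelihood test) and 3.40-fold in Stat5b-/- (1.76, standard error 0.18, adjusted p = 5.17e-06). Stat5b-/- libraries were 2.09-fold above Stat5a-/- libraries (1.06, standard error 0.18, adjusted p = 5.95e-04 with edgeR). The Stat5a-/- call was lost without Stat5a-/- replicate 1 (0.53, adjusted p = 0.0545 with edgeR). Its neighbours within 5 Mb had a median of -0.36 in Stat5a-/- and -0.07 in Stat5b-/- against wt.

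Gadd45a (ENSMUSG00000036390.8, chr6:67035096-67037457), a growth arrest and DNA damage protein that binds PCNA and stress kinase regulators, followed the same order of lines at a lower level. It stood at 5.27, 5.86 and 5.49 CPM in wt, at 7.90, 9.19 and 6.94 in Stat5a-/- and at 10.6, 13.7 and 15.6 in Stat5b-/- libraries, from between 77 and 205 reads. No 2 lines overlapped. The increase in Stat5b-/- was 2.39-fold (log2 fold change 1.26, standard error 0.17, adjusted p = 5.53e-05 with edgeR's quasi-likelihood test), and Stat5b-/- libraries lay 1.66-fold above Stat5a-/- libraries (0.73, standard error 0.17, adjusted p = 0.00558). The increase in Stat5a-/- was 1.45-fold (0.53, standard error 0.18, adjusted p = 0.0330 with edgeR). That call was lost without wt replicate 1 (0.50, adjusted p = 0.0802 with edgeR), wt replicate 2 (0.57, adjusted p = 0.0571), wt replicate 3 (0.52, adjusted p = 0.0912), Stat5a-/- replicate 1 (0.52, adjusted p = 0.0739) or Stat5a-/- replicate 2 (0.41, adjusted p = 0.137), and with the GC offset (0.30, adjusted p = 0.303). Of its 1764 exon bases, 337 (19.1%) are shared with the antisense gene E230016M11Rik, and reads were counted without strand and dropped where genes overlap. The other 9 genes share no exon base with another gene model.

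Zmat3 (ENSMUSG00000027663.12, chr3:32334792-32366014), a zinc finger protein that binds RNA and acts downstream of p53 as a tumour suppressor, fell to a similar level in both knockout lines. It had 62.3, 69.1 and 70.1 CPM in wt, 46.3, 41.2 and 44.7 in Stat5a-/- and 45.5, 34.5 and 44.9 in Stat5b-/- libraries. All knockout libraries lay below all wt libraries, and the knockout lines overlapped. Zmat3 was 1.52-fold lower in Stat5a-/- (log2 fold change -0.61, standard error 0.12, adjusted p = 0.00135 with edgeR's quasi-likelihood test) and 1.61-fold lower in Stat5b-/- (-0.69, standard error 0.12, adjusted p = 4.12e-04). The difference between the knockout lines was -0.08 (95% interval -0.35 to 0.18). Both calls against wt held under all 18 alternatives with a test.

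Phlda3 (ENSMUSG00000041801.5, chr1:135766119-135769136) encodes a PH domain protein that keeps AKT from the membrane, and it fell further than any other of the 9 genes in both knockout lines. It had 7.55, 7.83 and 6.99 CPM in wt, 2.31, 1.06 and 2.43 in Stat5a-/- and 3.02, 3.14 and 1.98 in Stat5b-/- libraries. These values rest on 119 to 155 reads in wt libraries and on 13 to 46 in the knockout libraries. Phlda3 was 3.84-fold lower in Stat5a-/- (log2 fold change -1.94, standard error 0.26, adjusted p = 5.30e-05 with edgeR's quasi-likelihood test) and 2.73-fold lower in Stat5b-/- (-1.45, standard error 0.24, adjusted p = 2.92e-04). The knockout lines overlapped, with a difference of 0.49 (95% interval -0.13 to 1.12). With the GC offset the difference was 0.68 and passed the test (adjusted p = 0.0481 with edgeR).

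Aen and Eda2r showed no call. Aen (ENSMUSG00000030609.18, chr7:78895854-78911209), the apoptosis enhancing nuclease, had 27.9, 27.0 and 25.8 CPM in wt, 31.6, 29.4 and 37.1 in Stat5a-/- and 29.8, 35.1 and 27.0 in Stat5b-/- libraries. The Stat5a-/- libraries lay above the wt libraries without passing the test (log2 fold change 0.28, standard error 0.13, adjusted p = 0.104 with edgeR's quasi-likelihood test). The Stat5b-/- value was 0.19 (95% interval -0.08 to 0.46). Eda2r (ENSMUSG00000034457.10, chrX:97333840-97377216), a death domain receptor of the tumour necrosis factor family, had 0 reads in the wt libraries and at most 1 read in any other, so that no level was detectable at this depth. A count of 3 reads would correspond to between 0.152 and 0.270 CPM in these libraries, a limit from counting error only.

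**Figure D3:**
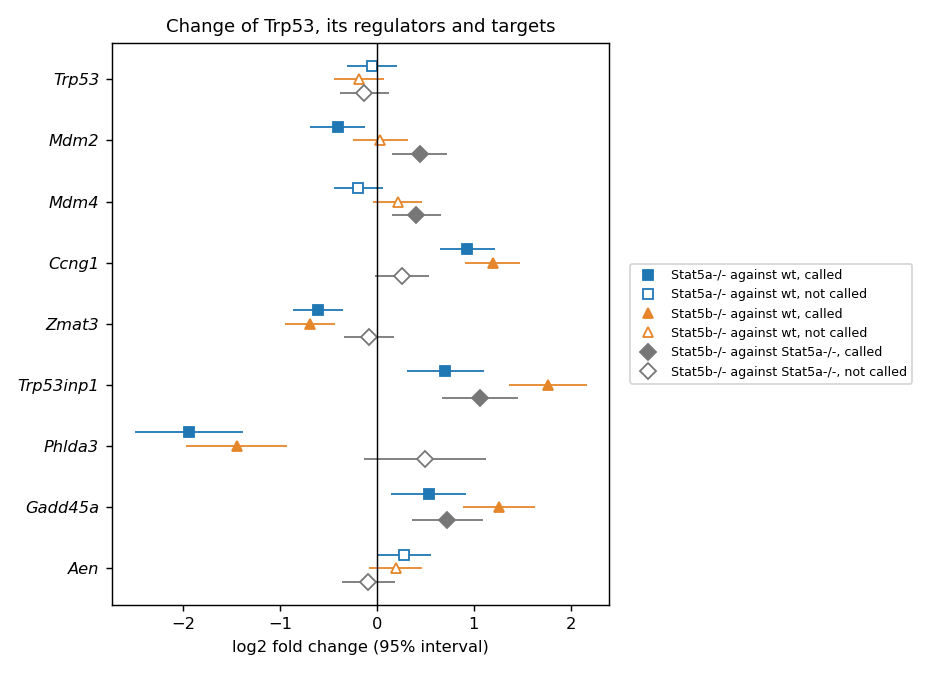
Log2 fold changes (horizontal axis, with 95% intervals as bars) of the 9 tested genes in the 3 comparisons. Filled symbols mark an adjusted p under 0.05 with edgeR. Trp53 and Aen have open symbols in all 3 comparisons, Ccng1, Trp53inp1 and Gadd45a lie right of 0 and Zmat3 and Phlda3 left of 0 in both comparisons against wt, and Mdm2 and Mdm4 are filled between the knockout lines.

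With the summed T-cell markers as a covariate, calls became rarer over all genes as well as in this group. In Stat5b-/- against wt, 4.49% of all genes rose and 4.30% fell in that fit, and of the 9 genes Zmat3 alone was called (log2 fold change -1.39, adjusted p = 0.0191 with edgeR). There the values were 0.66 for Ccng1 (adjusted p = 0.317 with edgeR), 0.38 for Trp53inp1 (adjusted p = 0.593) and 1.20 for Gadd45a (adjusted p = 0.183), and the change of Phlda3 was -0.93 (adjusted p = 0.472). In Stat5a-/- against wt, where 11.02% of all genes rose and 9.66% fell in that fit, Zmat3 (-1.01, adjusted p = 0.00414 with edgeR), Phlda3 (-1.64, adjusted p = 0.0301) and Mdm4 (-0.65, adjusted p = 0.0194) fell and Aen (0.65, adjusted p = 0.0489) rose, while Trp53inp1 was at -0.08. Calls were lost there for Mdm2 (-0.67, adjusted p = 0.0770 with edgeR), Ccng1 (0.62, adjusted p = 0.0942) and Gadd45a (0.50, adjusted p = 0.324). Between the knockout lines 0 of the 9 genes were called with edgeR in this fit, where 2 were higher and 1 lower in Stat5b-/- at an unadjusted p under 0.05 and 6.27% of all genes were called higher and 8.44% lower. The marker sums of the lines did not overlap, so this fit cannot tell genotype and T-cell marker level apart. The part of the T-cell marker level in these results was not tested.

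Of the upstream regulators of p53, Cdkn2a changed most. This gene (ENSMUSG00000044303.6, chr4:89274471-89294653) encodes both the MDM2 inhibitor ARF and the CDK inhibitor p16, and had 179.6, 155 and 161 CPM in wt, 13.01, 13.3 and 15.1 in Stat5a-/- and 8.30, 8.88 and 8.38 in Stat5b-/- libraries. It was 12.0-fold lower in Stat5a-/- (log2 fold change -3.58, standard error 0.11, adjusted p = 8.50e-11 with edgeR's quasi-likelihood test) and 19.4-fold lower in Stat5b-/- (-4.28, standard error 0.12, adjusted p = 3.68e-11), and lower in Stat5b-/- than in Stat5a-/- (-0.69, standard error 0.12, adjusted p = 5.65e-04). The gene counts do not separate ARF from p16 transcripts. Both calls against wt held under all 18 alternatives with a test, and its 24 neighbours within 5 Mb had a median of 0.00 in Stat5a-/- and -0.06 in Stat5b-/-. Per length, Cdkn2a in wt stood at 141 CPM per kilobase, near the 151 of Trp53. Of the 16 listed regulators, 14 were tested, without Trp63 and Trp73. Of the 14, 28.6% were called in Stat5a-/- against wt, 42.9% in Stat5b-/- against wt and 28.6% between the knockout lines, beside 36.0%, 46.2% and 33.9% of all tested genes. In Stat5a-/- against wt, Kat5 rose and Cdkn2a, Chek2 and Trp53bp1 fell. Kat5 was at 0.35, below the median of 0.41 of its chromosome, 19. In Stat5b-/-, Atm, Usp7, Hipk2 and Wrap53 rose and Cdkn2a and Chek2 fell. Hipk2, a kinase that phosphorylates p53 for cell death, was at 0.72 in Stat5b-/- (standard error 0.18, adjusted p = 0.00565 with edgeR), where its neighbours within 5 Mb on chromosome 6 had a median of 0.43. Between the knockout lines, Hipk2 and Trp53bp1 were higher and Cdkn2a and Kat5 lower in Stat5b-/-. The Hipk2 call (0.61, adjusted p = 0.0205 with edgeR) was lost without Stat5a-/- replicate 1 or 2 or Stat5b-/- replicate 1 or 2, at adjusted p up to 0.0946, and its neighbours had a median of 0.42. Kat5 was at -0.28, less far from 0 than the chromosome 19 median of -0.43, and this call was lost, among other settings, with the replicate block and without wt replicate 3 or Stat5b-/- replicate 1. The median of the list was -0.01 in Stat5a-/- and 0.06 in Stat5b-/- against wt.

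A further 34 p53 targets were described in the same way, of which 30 were tested. In Stat5a-/- against wt 5 rose and 7 fell, where 19.8% of all tested genes rose and 16.3% fell. In Stat5b-/- against wt 8 rose and 3 fell, where 24.2% of all genes rose and 22.0% fell. Of the 30, 10 were higher and 1 was lower in Stat5b-/- than in Stat5a-/-, where 16.4% of all genes were higher and 17.5% lower. The medians were -0.14 in Stat5a-/-, 0.26 in Stat5b-/- and 0.17 between the knockout lines. Of the tested targets, 40.0% were called in Stat5a-/- against wt, beside 36.0% of all tested genes, and 36.7% in Stat5b-/-, beside 46.2%. Between the knockout lines 36.7% were called, beside 33.9%.

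Among 7 tested genes of growth arrest and feedback, Cdkn1a, the CDK inhibitor p21, rose in both knockout lines. It stood at 110.2, 91.8 and 98.0 CPM in wt, 122, 121 and 144 in Stat5a-/- and 144, 135 and 119 in Stat5b-/- libraries, with both knockout lines above wt. The log2 fold change was 0.37 in Stat5a-/- (standard error 0.11, adjusted p = 0.0212 with edgeR's quasi-likelihood test) and 0.41 in Stat5b-/- (standard error 0.11, adjusted p = 0.00945). The genes of chromosome 17, where Cdkn1a lies, had a median of 0.53 in Stat5a-/- against wt, and relative to it Cdkn1a was at -0.16. The Stat5a-/- call was lost without wt replicate 2 (0.31, adjusted p = 0.0938 with edgeR), wt replicate 3 (0.35, adjusted p = 0.0805) or Stat5a-/- replicate 3 (0.25, adjusted p = 0.127), and the Stat5b-/- call without Stat5b-/- replicate 1 (0.32, adjusted p = 0.0547). Sfn, the 14-3-3 sigma protein that holds cells in G2, rose 3.66-fold in Stat5a-/- (1.87, standard error 0.19, adjusted p = 3.83e-06 with edgeR) and 3.67-fold in Stat5b-/- (1.88, standard error 0.19, adjusted p = 3.11e-06). Ppm1d, the phosphatase that switches off p53 signalling, rose in Stat5b-/- (0.39, standard error 0.10, adjusted p = 0.00681 with edgeR) and was higher there than in Stat5a-/- (0.54, adjusted p = 0.00130). Btg2 and Ptprv were also higher in Stat5b-/- than in Stat5a-/-, with log2 fold changes of 0.48 and 0.93 (adjusted p = 0.0488 and 0.0290 with edgeR). Their neighbours within 5 Mb on chromosome 1 had medians of 0.18 and 0.17 in that comparison. The Btg2 call was lost without any library but Stat5b-/- replicate 2, at adjusted p up to 0.168, with RLE scaling (0.0521), with only the genotypes compared (0.0724) and with the replicate block (0.0872). The Ptprv call was lost with the replicate block (0.0575) and without Stat5a-/- replicate 1 or 2 or Stat5b-/- replicate 1 or 2, at adjusted p up to 0.121.

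Among 9 tested genes of cell death, Pmaip1, the BH3-only protein NOXA, rose 4.78-fold in Stat5a-/- (log2 fold change 2.26, standard error 0.32, adjusted p = 8.54e-05 with edgeR's quasi-likelihood test) and 4.56-fold in Stat5b-/- (2.19, standard error 0.31, adjusted p = 8.78e-05), from 6 to 23 reads in wt libraries. Genes of its chromosome, 18, had a median of 0.43 in Stat5a-/-. The death receptor Fas stood at 1.33, 2.83 and 1.96 CPM in wt, 2.66, 2.85 and 4.15 in Stat5a-/- and 7.68, 7.65 and 8.76 in Stat5b-/- libraries. It rose 3.86-fold in Stat5b-/- (1.95, standard error 0.24, adjusted p = 2.76e-05 with edgeR), and stood 2.51-fold higher there than in Stat5a-/- (1.33, standard error 0.24, adjusted p = 0.00101). The Stat5a-/- value of 0.62 did not pass (adjusted p = 0.0958 with edgeR), except without wt replicate 2 (0.94, adjusted p = 0.0230) and with the GC offset (0.74, adjusted p = 0.0324). The genes of its chromosome, 19, had a median of 0.41 in Stat5a-/- against wt and -0.43 between the knockout lines. Apaf1 rose in Stat5b-/- (0.32, adjusted p = 0.0451 with edgeR), a call lost under 13 of 18 alternatives, 7 of which left out a library. Bax, which opens the outer mitochondrial membrane, and Bbc3, the BH3-only protein PUMA, were at 0.07 and -0.25 in Stat5a-/- and 0.16 and 0.38 in Stat5b-/- and passed in neither. With the GC offset Bbc3 passed in both, at -0.47 in Stat5a-/- (adjusted p = 0.00973 with edgeR) and 0.59 in Stat5b-/- (adjusted p = 0.00112). Bbc3 was at 0.63 between the knockout lines (adjusted p = 0.0776 with edgeR), and it passed without Stat5a-/- replicate 3 (0.91, adjusted p = 0.0190), without Stat5b-/- replicate 3 (0.84, adjusted p = 0.0180), without the filter on low counts (0.63, adjusted p = 0.00312) and with the GC offset (1.06, adjusted p = 1.46e-05). Siva1 fell in both lines and Tnfrsf10b in Stat5a-/-. Fas, Tnfrsf10b and Apaf1 were higher, and Siva1 lower, in the Stat5b-/- line compared with the Stat5a-/- line. The Siva1 call there was lost, among other settings, with the replicate block and without wt replicate 3 or Stat5b-/- replicate 1.

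Among 14 tested genes of DNA repair and metabolism, Sesn2, a sestrin that restrains mTORC1, fell in Stat5a-/- (log2 fold change -0.85, standard error 0.20, adjusted p = 0.00449 with edgeR's quasi-likelihood test) and in Stat5b-/- (-0.66, standard error 0.20, adjusted p = 0.0153). The Stat5b-/- call was lost without wt replicate 1 (-0.50, adjusted p = 0.0681 with edgeR) or Stat5b-/- replicate 3 (-0.50, adjusted p = 0.0503). Sesn1 was at -0.38 in Stat5a-/- (adjusted p = 0.0144 with edgeR, lost without wt replicate 2 at 0.0586) and 0.00 in Stat5b-/-. Tigar was at -0.35 in Stat5a-/- (adjusted p = 0.0356 with edgeR), a call that did not hold without wt replicate 1, 2 or 3 or Stat5a-/- replicate 2, with adjusted p up to 0.133, with the replicate block (0.0658) or without the filter on low counts (0.0770). In Stat5b-/- against wt Tigar was not called. It lay between -0.48 and -0.25 in the 18 alternatives with a test and passed in 6 of them. Xpc, a sensor of DNA lesions, rose by 0.94 in Stat5a-/- (standard error 0.14, adjusted p = 1.43e-04 with edgeR) and 1.01 in Stat5b-/- (adjusted p = 5.87e-05), and its 61 neighbours within 5 Mb on chromosome 6 had medians of 0.84 and 0.81. Gls2, a mitochondrial glutaminase, had 13 to 25 reads in wt, 1 to 10 in Stat5a-/- and at most 2 in Stat5b-/- libraries, and it passed the test in both lines. The Stat5a-/- call (adjusted p = 0.0429 with edgeR) was lost without wt replicate 1 or 2, Stat5a-/- replicate 2 or 3 or Stat5b-/- replicate 2, at adjusted p up to 0.140, with DESeq2 (0.0732) and with only the genotypes compared (0.0525). Rrm2b also fell in Stat5a-/-, Dcxr rose in Stat5a-/- and Ephx1 in Stat5b-/-. Ddb2, Rrm2b, Sesn1 and Ephx1 were higher in Stat5b-/- than in Stat5a-/-. The Ddb2 call there (0.35, adjusted p = 0.0391 with edgeR) was lost under 12 of 18 alternatives, and without any library but wt replicate 1 or Stat5b-/- replicate 2, at adjusted p up to 0.118. The Sesn1 call (0.39, adjusted p = 0.0162 with edgeR) was lost without Stat5a-/- replicate 2 (0.34, adjusted p = 0.0684) or Stat5b-/- replicate 2 (0.36, adjusted p = 0.0551). Against wt, Ddb2, a damage recognition protein, was at -0.049 in Stat5a-/- and at 0.30 in Stat5b-/- (adjusted p = 0.0521 with edgeR), where it passed without Stat5b-/- replicate 2 (0.36, adjusted p = 0.0417) and with the GC offset (0.29, adjusted p = 0.0256). Ddit4, an inhibitor of mTORC1, was at -0.047 in Stat5b-/- and at -0.37 in Stat5a-/- (adjusted p = 0.0623 with edgeR). In Stat5a-/- it passed without Stat5a-/- replicate 3 (-0.55, adjusted p = 0.00993), without Stat5b-/- replicate 3 (-0.37, adjusted p = 0.0486), without the filter on low counts (-0.39, adjusted p = 0.0228) and with the GC offset (-0.61, adjusted p = 2.62e-05). Plk2, Perp, Dram1 and Ak1 had too few reads to be tested.

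**Figure D4:**
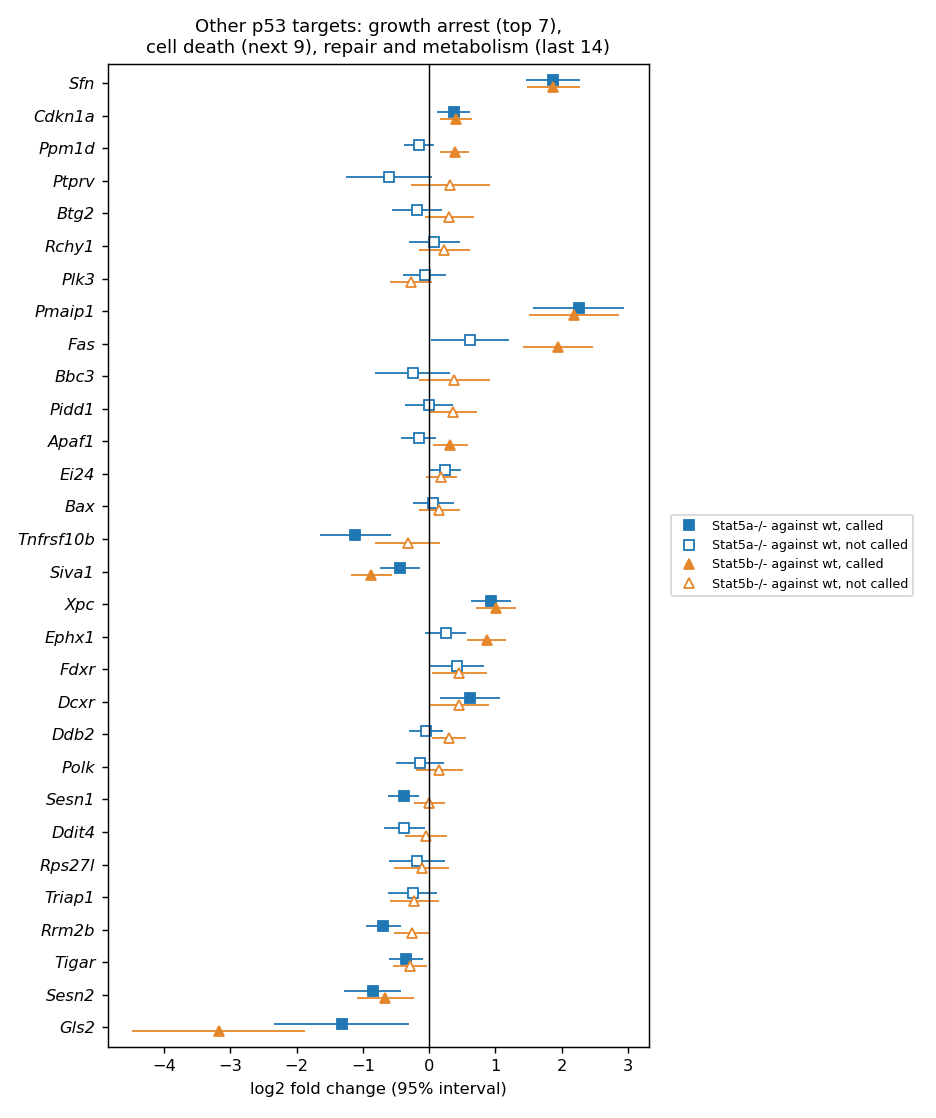
Log2 fold changes against wt (horizontal axis, with 95% intervals as bars) of the 30 other tested p53 targets in Stat5a-/- and Stat5b-/-. Filled symbols mark an adjusted p under 0.05 with edgeR. Sfn, Pmaip1 and Xpc lie well right of 0 in both lines, Siva1, Sesn2 and Gls2 lie left of 0 in both, and Fas lies far right of 0 in Stat5b-/- with an open symbol in Stat5a-/-.

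Genes that p53 represses through p21 and the DREAM complex, mostly of mitosis, were called in 1 of 10 cases in each knockout line, beside 36.0% of all tested genes in Stat5a-/- and 46.2% in Stat5b-/-, and in 2 of 10 between the lines, beside 33.9%. Birc5 rose in Stat5a-/- (log2 fold change 0.31, adjusted p = 0.0208 with edgeR's quasi-likelihood test) and Foxm1 in Stat5b-/- (0.56, adjusted p = 0.0165). The Birc5 call was lost without wt replicate 1, 2 or 3 or Stat5a-/- replicate 2, at adjusted p up to 0.110, with the replicate block (0.0507) and without the filter on low counts (0.0817). The Foxm1 call was lost without wt replicate 2 or Stat5b-/- replicate 1 or 2, at adjusted p up to 0.107. Birc5 and Cdc25c were lower in Stat5b-/- than in Stat5a-/-. Cdc25c was at -0.33 there, less far from 0 than the median of its chromosome, 18, at -0.48, and its call was lost, among other settings, with the replicate block and without wt replicate 3 or Stat5b-/- replicate 1. The medians of the list were 0.14 in Stat5a-/- and 0.03 in Stat5b-/- against wt.

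With the T-cell marker sum as a covariate, the calls of Cdkn2a, Sfn and Xpc held in both knockout lines against wt, as did that of Pmaip1 in Stat5a-/-, and those of Ptprv and Hipk2 between the knockout lines. All other calls of the genes outside the 10 that are given here with values and alternatives were lost in that fit. In Stat5a-/- these were Cdkn1a (0.60, adjusted p = 0.0625 with edgeR), Sesn1 (adjusted p = 0.364), Sesn2 (0.442), Tigar (0.170), Gls2 (0.724) and Birc5 (0.257). In Stat5b-/- they were Cdkn1a (0.82, adjusted p = 0.153 with edgeR), Pmaip1 (2.05, adjusted p = 0.194), Fas (1.30, adjusted p = 0.295), Ppm1d (adjusted p = 0.814), Apaf1 (0.904), Sesn2 (0.973), Gls2 (0.506), Hipk2 (0.106) and Foxm1 (0.288). Between the lines they were Cdkn2a (-0.49, adjusted p = 0.0622 with edgeR), Fas (1.05, adjusted p = 0.0909), Btg2 (adjusted p = 0.734), Ppm1d (0.0803), Sesn1 (0.0917), Ddb2 (0.701), Apaf1 (0.216) and Birc5 (0.135).

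Over the 9 libraries, the genes whose log2 CPM was most alike to that of Trp53 were Sf3a2, Cdk16 and Mrps12, with Pearson correlations of 0.99, 0.98 and 0.98. For Mdm2 they were Zfp451, Dynlt3 and Ska2, with 0.99, 0.98 and 0.97. These are descriptions over 9 libraries that share cell lines and the GC trend.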

How the data were processed

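PolyA RNA of 3 technical replicates of each cell line was sequenced as single-end reads. The deposited tables hold raw read counts per gene. Per the labels and the study's methods, the authors trimmed reads with Trimmomatic and aligned them to GRCm38 with STAR. They counted reads with featureCounts on GENCODE gene models. By the counting options, strand was not used, and reads mapping to several places or to overlapping genes were not counted. All 9 libraries shared a flow cell and lane. Gene names were matched to 50376 of the 50686 genes.

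Of these, 13852 genes passed edgeR's filterByExpr. They were scaled by TMM and tested by genotype with edgeR's quasi-likelihood test (version 4.0.16 in R 4.3.3), over all 9 libraries, with Benjamini-Hochberg adjustment over all tested genes and a threshold of 0.05. Normalized CPM used the TMM-scaled library sizes, and CPM per kilobase divides them by the union exon length. Neighbours are tested genes within 5 Mb of a gene. The scripts were tested on simulated data. Alternatives were DESeq2 1.42.0, RLE scaling, no filter, a minimum mean of 10 reads, a fit of only the genotypes compared, the replicate number as a block, the T-cell marker sum as a covariate, leaving out each library, subtracting the chromosome median and a fold change above 2. An offset for GC content (loess span 0.5), alone and with the block, was chosen after seeing the data.

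The 10 genes and all gene lists were chosen with earlier results of these data known. The rule for named genes took the 10 genes, Cdkn1a, Cdkn2a, Bax, Bbc3, Pmaip1, Fas, Btg2, Ppm1d, Sesn1, Sesn2, Plk2, Ddb2, Perp, Apaf1, Tigar, Ddit4, the 2 called members of each other list with the largest change, Stat5a, Stat5b and the 3 genes most correlated with Trp53 and with Mdm2. Other genes were named after their values were seen, and the alternatives were not run for them one by one. Libraries of the same line were not duplicates, with chi-square values per degree of freedom between 4.63 and 28.0. Replicate numbers did not pair the libraries.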

Additional observations from a re-analysis of the deposited data

How the results depend on the processing

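Of the comparisons of the 9 tested genes with the alternatives, 468 kept direction and, where the alternative had a test, side of the threshold. Of the rest, 27 lost the call, 5 gained it, 11 reversed and 2 moved. Subtracting the chromosome median had no test. With the T-cell marker sum as a covariate, the counts of called members became 1 up in Stat5a-/- (11.02% of all genes), 0 up and 1 down in Stat5b-/- (4.49% and 4.30%) and 0 higher between the knockout lines (6.27%), and those of the other listed p53 genes 4 up and 5 down, 2 up and 1 down, and 3 higher and 0 lower. A fold change above 2 left 0 members up and 1 down in Stat5a-/-, 3 up and 1 down in Stat5b-/- and 1 higher between the lines, and of the other listed genes 2 up and 3 down, 4 up and 2 down, and 1 higher and 0 lower. The GC offset gave 11 other genes up in Stat5a-/- and 20 up and 10 down in Stat5b-/-. The cause of these shifts was not tested.

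Same-numbered libraries correlated on average at -0.126 in their deviations, against 0.0623 for different numbers, and the numbers share nothing else. The replicate block changed no call of a member. It left 2 other genes lower between the knockout lines (5 without the block) and, with the GC offset, 3 lower there, 11 up in Stat5a-/- and 10 down in Stat5b-/-. Only the 2 genotypes compared gave 3 lower. Leaving out 1 library gave 1 to 3 members up and 2 to 3 down in Stat5a-/-, 3 up and 2 to 3 down in Stat5b-/- and 3 to 4 higher and 0 lower between the lines. Of the other listed genes it gave 3 to 8 up and 6 to 12 down, 10 to 15 up and 3 to 6 down, and 6 to 12 higher and 2 to 4 lower. The count of members up in Stat5a-/- was 1 without Stat5a-/- replicate 1. Other genes up in Stat5a-/- numbered 7 with all libraries, 4 without wt replicate 2 and 3 without wt replicate 3, and those down numbered 10, and 6 without wt replicate 1 or 2. Those down in Stat5b-/- numbered 5, and 3 without wt replicate 1. Those higher between the lines numbered 12, 7 without Stat5a-/- replicate 1 and 6 without Stat5a-/- replicate 2, and those lower numbered 5, 2 without wt replicate 3 or Stat5b-/- replicate 1, and 3 without any other library but Stat5a-/- replicate 2. Of these 5, Cdkn2a and Birc5 were called each time, so that Siva1, Kat5 and Cdc25c lost all 3 calls where 2 remained. Where 3 remained, they lost at least 2 of the 3 calls, and which was not listed gene by gene.

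With the covariate, direction reversed in Stat5a-/- for Trp53 (0.036), Trp53inp1 (-0.081) and Ptprv (0.17), in Stat5b-/- for Mdm2 (-0.42), Mdm4 (-0.58), Btg2 (-1.10), Sesn2 (0.049), Ddb2 (-0.24) and Ddit4 (0.57), and between the lines for Aen (0.18), Btg2 (-0.13) and Tigar (-0.022). Minus the chromosome median, Cdkn1a in Stat5a-/- reversed to -0.16. With the GC offset, reversals were Bax at -0.17 in Stat5a-/-, Sesn1 at -0.00757 in Stat5b-/- and Aen at 0.056 between the lines, and with the block added -0.17, -0.00586 and 0.050. Sesn1 in Stat5b-/- was at -0.024 with DESeq2, -0.024 with RLE scaling, -0.017 without the filter and -0.021 with only 2 genotypes, and Sfn between the lines at -0.00461 with DESeq2 and -0.00383 with RLE scaling. Without 1 library, values that reversed ranged in Stat5a-/- from -0.031 to 0.13 for Bax and -0.068 to 0.19 for Hipk2, in Stat5b-/- from -0.047 to 0.15 for Mdm2, -0.026 to 0.25 for Bax, -0.14 to 0.071 for Ddit4 and -0.060 to 0.039 for Sesn1, and between the lines from -0.20 to 0.017 for Aen, -0.072 to 0.19 for Bax, -0.026 to 0.14 for Cdkn1a, -0.16 to 0.055 for Pmaip1, -0.00233 to 0.38 for Sesn2, -0.12 to 0.14 for Sfn, -0.027 to 0.13 for Tigar, -0.021 to 0.14 for Xpc and -0.16 to 0.036 for Zmat3.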
